A study of Mus musculus with 3 samples.

Results

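ETO2 occupancy was examined at 10 genes grouped as arterial, although Ephb4 encodes a venous receptor. They were the SoxF transcription factor genes Sox7, Sox17 and Sox18, and the Notch receptor and ligand genes Notch1, Dll4 and Jag1. The others were the Notch target genes Hey1 and Hey2 and the ephrin pair Efnb2 and Ephb4. ETO2, encoded by Cbfa2t3, is a co-repressor carried on DNA by complexes of the blood transcription factor SCL. Chromatin came from wild-type ES cell-derived embryoid bodies (EBs) of strain C57Bl/6 X Sv129 at day 4 per the sample labels, whereas the design text of the series gives day 3.5, and the source is labelled FLK1+mesoderm. The labels describe 2 immunoprecipitations with an antibody to ETO2, called replicate 1 and replicate 2, and 1 input without antibody; per the series design the replicates came from separate differentiations, but both peak lists carry the same ChIP name, so that separate immunoprecipitations are not shown by the lists. A site was assigned to a gene when a peak summit lay in the gene body or within 100 kb of it, or when the nearest protein-coding start site was that of the gene. Peaks of the replicates that overlapped by at least 1 bp were merged, which gave 3192 sites, and 14 of these were assigned to the 10 genes. Peak positions hold no expression values, so the FLK1+ label could not be checked against marker genes.

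SoxF factors are high-mobility-group box proteins of the early endothelium that take part in arterial specification. Notch receptors are cleaved when bound by Delta-like or Jagged ligands on a neighbouring cell, and the released intracellular domain joins RBPJ on DNA to activate genes such as those of the Hey repressors. Ephrin-B2, encoded by Efnb2, marks arteries, and its receptor EphB4 marks veins. Blood and endothelium arise from FLK1+ mesoderm, and GATA factors together with SCL, which binds E-boxes (CANNTG), act in both lineages.

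Of the 10 genes, 7 had a site and 5 had a site called in both replicates, namely Sox7, Sox17, Efnb2, Notch1 and Hey2. Among all 22238 protein-coding genes, 27.9% had a site by the same rule and 11.1% had a site called in both replicates. The 10 genes were chosen with earlier results of these data known, so these shares do not show that arterial genes differ from other genes. Sox7 had 4 sites, Efnb2 and Notch1 had 3 each, and Sox17, Ephb4, Hey1 and Hey2 had 1 each. No site was assigned to Sox18, Dll4 or Jag1. None of the 14 summits lay in the body of a member gene. Of the 14 sites, 10 lay within 100 kb of a member gene and 4 were assigned by the nearest start site alone. For 6 sites the nearest start site was that of another gene, and these are named below with their distance, because proximity does not show which gene a site acts on.

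The 100 bp summit window (mm9) of the strongest site called in both replicates is shown for each of the SoxF genes that had one, because the windows differ in the form of their GATA motif. Capitals mark each match to WGATAR, where the first base is either of A and T and the last is either of A and G, or to the pair of CTG and GATA with 8 to 10 bases between them, read on either strand. This pair is the arrangement of an E-box half-site and a GATA motif that SCL complexes are known to bind.
Sox7, 35.0 kb upstream (chr14:64527502-64527601, + strand): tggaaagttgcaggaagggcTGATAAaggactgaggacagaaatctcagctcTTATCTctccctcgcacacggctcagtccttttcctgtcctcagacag
Sox17, 146 bp upstream (chr1:4486590-4486689, + strand): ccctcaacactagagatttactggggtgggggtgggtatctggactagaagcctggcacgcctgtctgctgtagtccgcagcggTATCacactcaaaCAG

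The same windows are shown for Efnb2, Notch1 and Hey2. A further window at Notch1 and another at Efnb2 were added after their motifs had been seen, the former because it held no GATA motif and the latter because its WGATAR formed part of a CTG and GATA pair.
Efnb2, 151 kb downstream (chr8:8488755-8488854, + strand): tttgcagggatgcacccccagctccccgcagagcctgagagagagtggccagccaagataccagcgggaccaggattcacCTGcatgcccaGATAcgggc
Efnb2, 123 kb downstream (chr8:8516573-8516672, + strand): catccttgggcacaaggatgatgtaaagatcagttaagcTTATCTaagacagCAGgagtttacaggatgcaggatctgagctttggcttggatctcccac
Notch1, 55.4 kb upstream (chr2:26427561-26427660, + strand): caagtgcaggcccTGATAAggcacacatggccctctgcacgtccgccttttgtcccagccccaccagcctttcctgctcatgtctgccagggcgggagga
Notch1, 62.0 kb upstream (chr2:26434110-26434209, + strand): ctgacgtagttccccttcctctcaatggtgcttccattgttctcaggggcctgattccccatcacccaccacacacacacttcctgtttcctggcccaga
Hey2, 226 kb upstream (chr10:30788704-30788803, + strand): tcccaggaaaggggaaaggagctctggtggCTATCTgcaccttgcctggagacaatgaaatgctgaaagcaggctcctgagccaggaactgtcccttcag

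**Figure D1:**
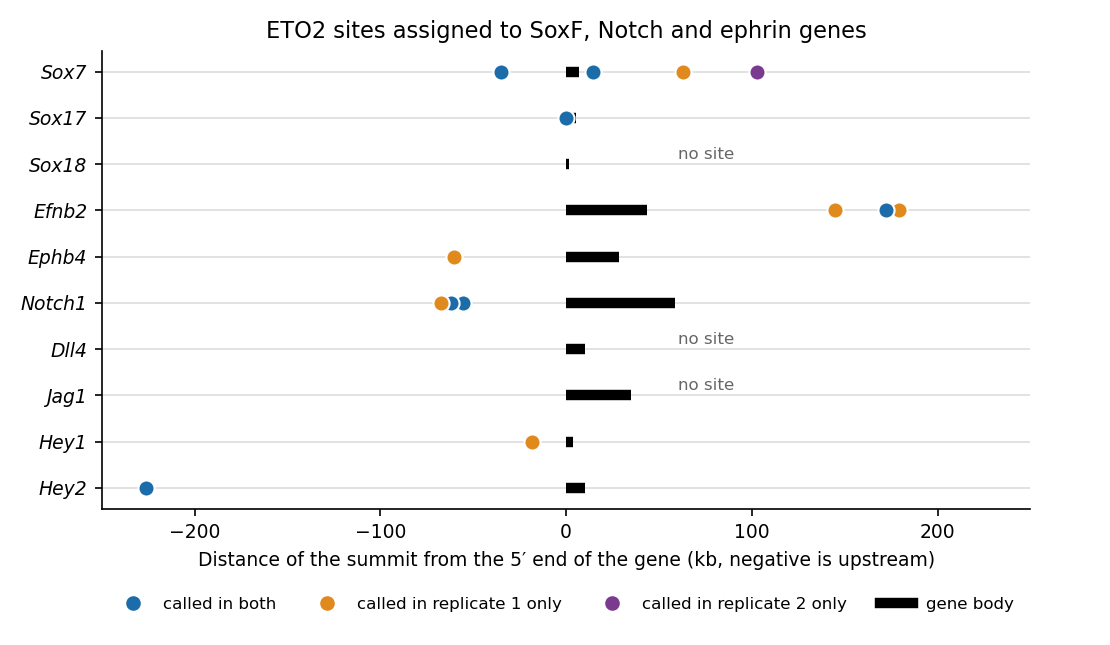
Position of the 14 ETO2 sites. The x axis gives the distance of the summit from the 5′ end of the gene model in kb, with negative values upstream and the gene body as a black bar, and points are coloured by the replicates that called the site. The 3 Efnb2 sites lie beyond the 3′ end of the gene and the 3 Notch1 sites lie together upstream, whereas the Sox7 sites are spread on both sides.

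Sox7 encodes the SoxF factor that had the most sites. The site 35.0 kb upstream (chr14:64527285-64528018), in an intron of Pinx1, had 69 fragments at the summit in replicate 1 over a local background of 7.45, and 66 in replicate 2 over 6.66. The authors' fold enrichment was 8.51 and 8.75, higher than that of 84.1% and 92.7% of the peaks of the respective lists. Both replicates thus placed this site among their stronger peaks, and their summits were 6 bp apart. Its window held 2 WGATAR matches on opposite strands, shown in capitals above, and 2 copies of AGGAA, the core bound by ETS factors.

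The other Sox7 sites lay on the downstream side. The site 14.3 kb downstream of the start, 7.21 kb past the end of the gene (chr14:64576527-64576977), had 33 fragments at the replicate 1 summit (5.66-fold enrichment) and 42 at the replicate 2 summit (6.66-fold), which lay 23 bp away. It was the intergenic site closest to the end of the gene, and it held 1 WGATAR and 1 AGGAA. Further sites lay 63.1 kb (chr14:64625438-64625694) and 103 kb (chr14:64665256-64665480) downstream of the start, each nearer to Rp1l1, at 14.3 kb and 16.7 kb. The first, in an intron of Rp1l1, was called in replicate 1 alone with 29 fragments and a fold enrichment of 4.99. The second, in intergenic sequence, was called in replicate 2 alone with 49 fragments and a fold enrichment of 7.30. Its fold enrichment was higher than that of 85.2% of the replicate 2 list, so it was a strong peak in a single library. Of the 292 replicate 2 sites in unique sequence with fragments within 20% of this number, 85.3% were also called in replicate 1. Consecutive Sox7 sites were 49.2, 48.8 and 39.8 kb apart, and each of the 4 windows held both WGATAR and AGGAA.

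Sox17, which encodes a SoxF factor of endoderm and arterial endothelium, had the only site within 1 kb of a member's start. The summit lay 146 bp upstream of the start (chr1:4486456-4486734). Replicate 1 had 37 fragments over a background of 5.22, with a fold enrichment of 6.33, and replicate 2 had 27 over 8.53, with a fold enrichment of 2.94. The site ranked above 67.4% of the replicate 1 list and above 3.9% of the replicate 2 list, so it was of middle strength in one library and near the lower end in the other, with summits 36 bp apart. The local background of peaks on chromosome 1 had a median of 5.22 in replicate 1 and 7.06 in replicate 2, against 4.47 and 5.60 over all peaks. Replicate 2 was called without an input, so its background came from the ChIP library itself, and how far this set the difference in fold was not tested. The window held no WGATAR and no AGGAA, but it held the CTG and GATA pair with 9 bases between, as shown above. The centre of the pair was 41.5 bp from the replicate 1 summit, at the edge of the window. The pair lay outside the 100 bp around the replicate 2 summit.

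Sox18, the remaining SoxF gene, had no site under the rule. The closest site to its body was 246 kb away, nearest to the start of Polr3k, and was called in replicate 2 alone with a fold enrichment of 9.03. In that window 55.8% of the 24-mers occurred once in the genome, below the 80% taken as unique, whereas all 14 assigned sites were in unique windows. The closest site called in both replicates was 8540.6 kb away.

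Notch1 encodes the Notch receptor of endothelium and blood progenitors. Its 3 sites lay 55.4, 62.0 and 67.2 kb upstream of its start, 6.55 and 5.21 kb apart, and all were nearer to Egfl7, which encodes a protein secreted by endothelial cells. The first (chr2:26427465-26427752), 7.92 kb from an Egfl7 start, had 32 fragments at the replicate 1 summit (6.04-fold enrichment) and 37 at the replicate 2 summit (5.21-fold). The second (chr2:26434063-26434271), 1.37 kb from an Egfl7 start, had 24 fragments (4.74-fold) and 32 fragments (4.44-fold). Both sites were of middle strength in both lists, and their summits differed between replicates by 67 and 10 bp. The third (chr2:26439197-26439456), 16 bp from an Egfl7 start, was called in replicate 1 alone with 17 fragments over a background of 3.02 and a fold enrichment of 4.71. Motif content differed along this cluster. The first window held WGATAR, 2 E-boxes and AGGAA, the second held 3 copies of AGGAA and AACAAT (a SOX motif) but no GATA motif, and the third held none of the motifs searched.

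The Notch targets Hey1 and Hey2, which encode related basic helix-loop-helix repressors, differed in their sites. Hey2 had a site 226 kb upstream in intergenic sequence (chr10:30788594-30788882). It had 40 fragments over a background of 3.51 in replicate 1 and 35 over 5.19 in replicate 2, with fold enrichments of 9.58 and 5.82, higher than those of 88.1% and 69.2% of the lists. This was the most distant of the 14 sites, but its summits were only 3 bp apart, and it held WGATAR and 2 copies of AGGAA. Hey1 had a site 18.2 kb upstream (chr3:8685169-8685390), called in replicate 1 alone with 15 fragments and a fold enrichment of 3.52. This was close to the lowest number of fragments of any replicate 1 peak, which was 12, and the window held none of the motifs searched.

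No site was assigned to the ligand genes. The closest site to Dll4 was 781 kb away (nearest gene Bmf, replicate 1 alone, fold enrichment 4.60). For Jag1 it was 3650.5 kb away (nearest gene Bmp2, both replicates, fold enrichments 5.82 and 4.28).

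Efnb2 had 3 sites, all in intergenic sequence beyond the 3′ end of the gene and all with an Efnb2 start as the nearest. The site 151 kb downstream of the nearest start and 129 kb from the gene body (chr8:8488598-8489567) had the highest replicate 1 fold enrichment of the 14 sites. Replicate 1 had a single wide peak there with 80 fragments over a background of 5.55 and a fold enrichment of 12.8, higher than that of 94.8% of the list. Replicate 2 had a pair of separate narrower peaks. The stronger had 41 fragments over 8.95 and a fold enrichment of 4.22, higher than that of 30.5% of the list, with its summit 446 bp from that of replicate 1. The weaker had 35 fragments over 9.06 and a fold enrichment of 3.58, with its summit 32 bp from that of replicate 1. The site was thus called in both libraries but was strong in replicate 1 alone. Peaks on chromosome 8 had a median local background of 5.96 in replicate 1 and 8.14 in replicate 2, against 4.47 and 5.60 over all peaks, and the part of this background in the fold difference was not tested. The window at the replicate 1 summit held the CTG and GATA pair with 8 bases between, overlapping an E-box, and no WGATAR. The centre of the pair was 37.0 bp from that summit.

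The other Efnb2 sites were called in replicate 1 alone. The site 123 kb from the start (chr8:8516466-8516754) had 44 fragments over a background of 4.67 and a fold enrichment of 8.26, higher than that of 82.3% of the list. Of the 351 replicate 1 sites in unique sequence with fragments within 20% of this number, 76.1% were also called in replicate 2, so sites of this strength were mostly found again and this one was not. It held WGATAR as part of a CTG and GATA pair with 8 bases between. The site 157 kb from the start (chr8:8482220-8482458) was weaker, with 27 fragments over 7.45 and a fold enrichment of 3.38. It held 2 WGATAR, 2 E-boxes and TGGGAA, the core bound by RBPJ, and it was the only one of the 14 windows with that core.

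Ephb4, which encodes the venous receptor of ephrin-B2, had a site 60.2 kb upstream (chr5:137731058-137731400). The summit lay 684 bp from a start of Ache, the acetylcholinesterase gene, in an exon of a non-coding transcript of that gene. It was called in replicate 1 alone with 20 fragments over a background of 4.38 and a fold enrichment of 4.05. This was a weak peak, above 20.9% of its list, and 15.2% of the 827 replicate 1 sites in unique sequence with fragments within 20% of this number were also called in replicate 2. Its window held WGATAR as part of a CTG and GATA pair with 9 bases between, and the WGATAR centre was 3.5 bp from the summit.

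**Figure D2:**
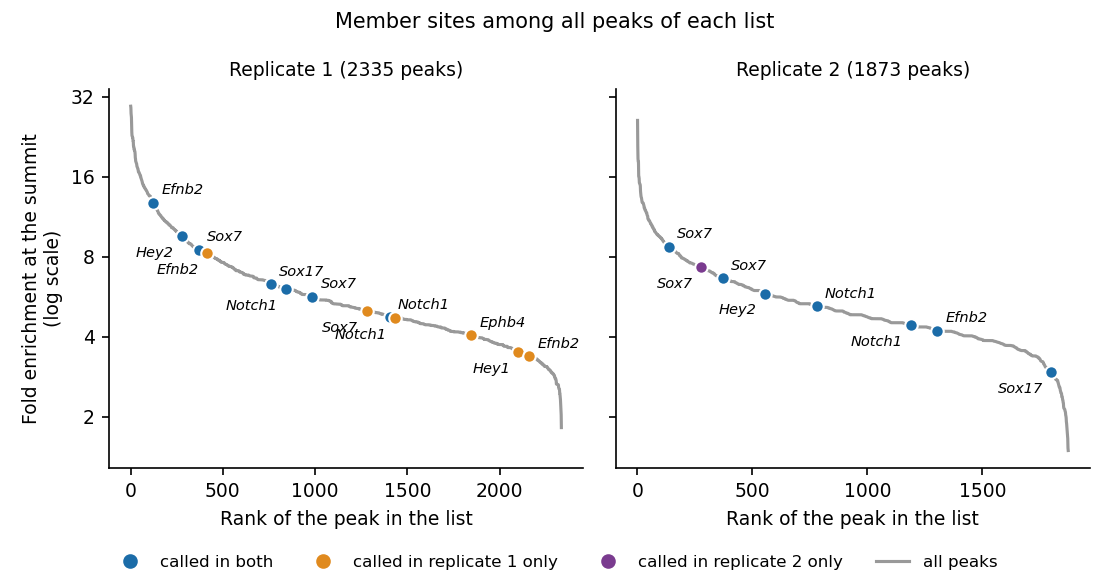
Fold enrichment at the summit (log scale) of every peak against its rank in replicate 1 (left, 2335 peaks) and replicate 2 (right, 1873 peaks). Points are the sites assigned to the genes, coloured by the replicates that called them, with the stronger peak plotted where a replicate had more than 1. The sites span both lists, with Efnb2 highest in replicate 1 at 12.8 and Sox7 highest in replicate 2 at 8.75.

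Of the 14 sites, 7 were called in both replicates (95% Wilson interval 26.8% to 73.2%), against 31.4% of all 3192 sites. The interval includes the share of all sites. That share was not restricted to unique windows, which all 14 sites had. Of all sites 79.8% had unique windows, and of those called in replicate 2 alone 37.1% had. In all, 13 of the 14 were called in replicate 1 and 8 in replicate 2. Fold enrichment over the sites ran from 3.38 to 12.8 in replicate 1 and from 2.94 to 8.75 in replicate 2, against medians of 5.24 and 4.85 over the lists. A site that a replicate did not call has no value there, and the lowest numbers of summit fragments listed were 12 in replicate 1 and 18 in replicate 2. The single-replicate sites at Hey1, Ephb4 and the Egfl7 start had 15 to 20 fragments. Those at Sox7 and Efnb2 had 27 to 49, so they were not all close to the limit of calling. The Efnb2 site with 27, which had a higher background, had a −log10 q-value of 6.47. This was near the 6.24 of the site at the Egfl7 start and the 5.88 of the Ephb4 site.

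**Figure D3:**
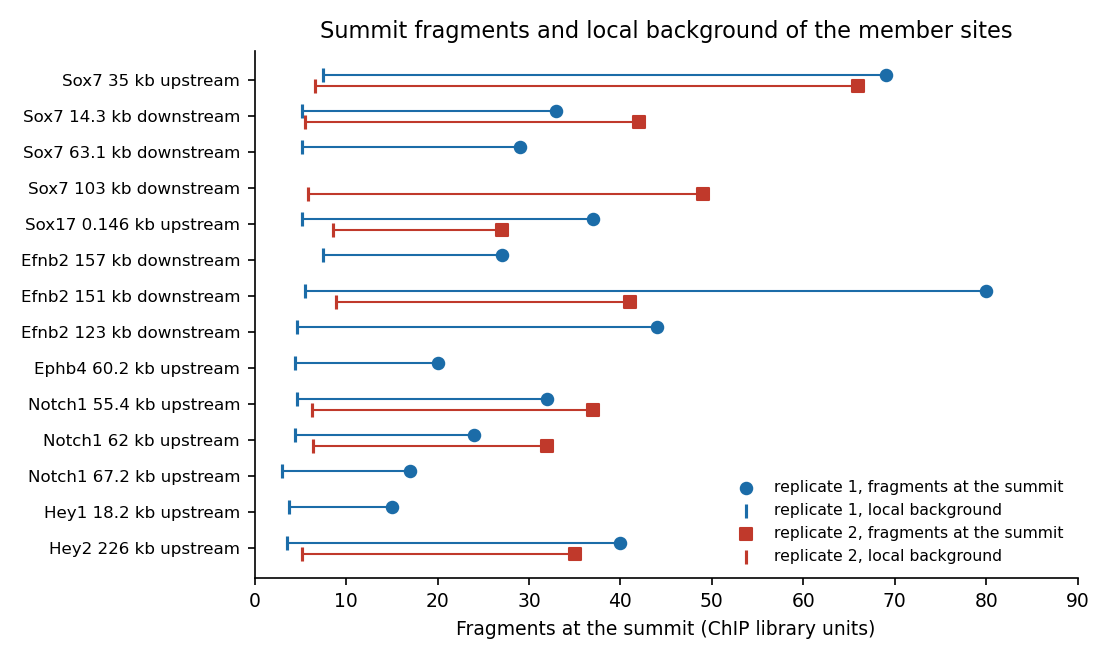
Number of fragments at the summit (points) and local background (vertical ticks) of each site in replicate 1 (blue) and replicate 2 (red), in units of the ChIP library, with a line between them. Rows give the gene and the distance to its nearest start site, and a missing line means that the replicate did not call the site. The Sox7 site 35 kb upstream has nearly equal values in both replicates (69 and 66), whereas the Efnb2 site 151 kb downstream has 80 and 41.

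WGATAR was present in 9 of the 14 windows (64.3%, Wilson interval 38.8 to 83.7), compared with 54.4% of all windows. The CTG and GATA pair was present in 5 (35.7%, against 24%), AGGAA in 7 (interval 26.8% to 73.2%, against 41.4%) and E-boxes in 4 (28.6%, against 45.0%). AACAAT was found in 2 windows (against 4.98% of all), TGGGAA in 1 (interval 1.27% to 31.5%, against 320 of all 3192 windows) and the control motif RATAGW in 1 (against 14.0%), where it overlapped WGATAR. These counts are small, and for each of the 7 motifs the interval of the share held the share of all sites. Among the 7 sites called in both replicates, WGATAR was present in 4, against 72.5% of all 1002 such sites. Of the 3 without it, those at Sox17 and Efnb2 held the CTG and GATA pair, centred 41.5 and 37.0 bp from the replicate 1 summit. That left the Notch1 site 62.0 kb upstream, near Egfl7, as the only one with neither. With either form counted, which was done after the separate counts had been seen, 11 of the 14 sites had a GATA motif (78.6%, against 57.2% of all sites), including 6 of the 7 called in both replicates (85.7%, against 76.6%). No interval was computed for these counts. Over all sites the share was 60.5% for those called in replicate 1 alone and 29.5% for those called in replicate 2 alone. Only 1 of the 14 was called in replicate 2 alone, so the 57.2% comes from a different mix of calls.

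**Figure D4:**
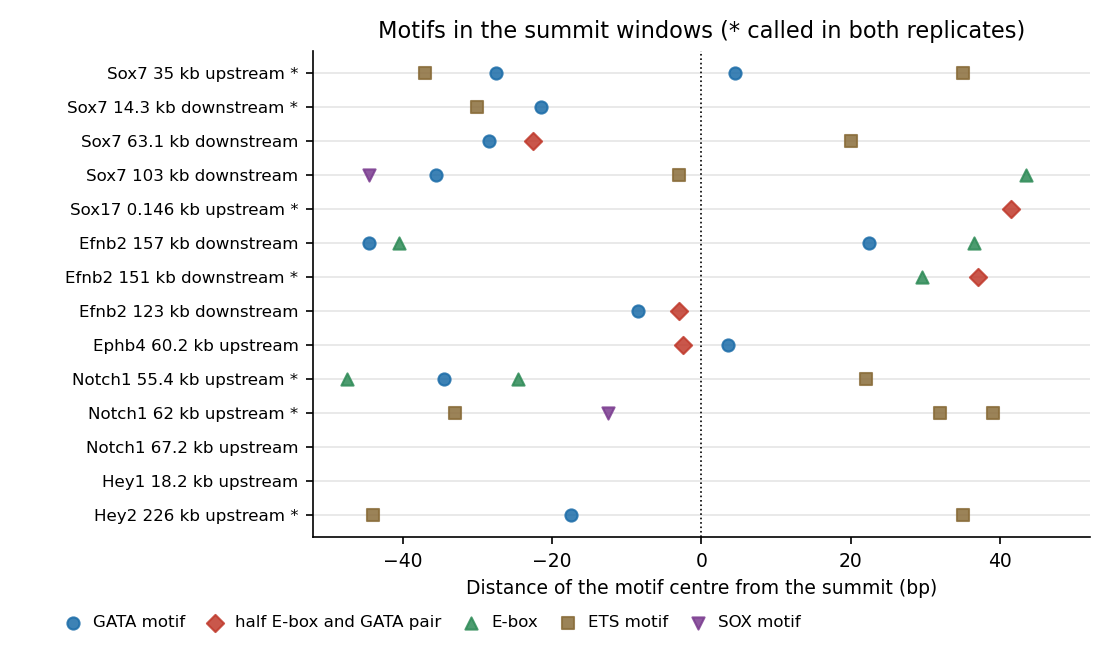
Motif matches around the summit in the 14 windows. The x axis gives the distance of the motif centre from the summit in bp, rows give the gene and the distance to its nearest start site, and asterisks mark sites called in both replicates. The RBPJ core and the control motif, each found once, are not drawn. All 4 Sox7 windows hold a GATA motif and an ETS motif, and the Hey1 and Notch1 67.2 kb windows hold no match.

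SoxF sites were then compared with sites at the Notch and ephrin genes. The 5 SoxF sites lay a median of 35.0 kb from the start of the gene (0.146 to 103 kb) and the 9 Notch and ephrin sites a median of 67.2 kb (18.2 to 226 kb). These distances are bounded by the rule and were not tested, and the ranges overlap. Sites called in both replicates were 3 of 5 at SoxF genes (Wilson interval 23.1% to 88.2%) and 4 of 9 at Notch and ephrin genes (44.4%, 18.9 to 73.3), with p = 1.0 by a 2-sided Fisher's exact test. The only site called in replicate 2 alone was at Sox7, and all 5 single-replicate sites of the other family were called in replicate 1. WGATAR was present in 4 of 5 SoxF windows (interval 37.6% to 96.4%) and 5 of 9 Notch and ephrin windows (55.6%, 26.7 to 81.1), with an exact p of 0.58. Those 4 SoxF windows were all at Sox7, and the Sox17 window had no WGATAR, so the share describes 1 locus. The largest gap was in AGGAA, found in 4 of 5 SoxF windows, all at Sox7, and 3 of 9 others (33.3%, 12.1 to 64.6), with an exact p of 0.266. Over the 8 tests of calls and motifs, each Benjamini-Hochberg adjusted p was 1.0. For the SOX motif, the RBPJ core and the control motif, the smallest p these numbers of matches can give was 0.11 or 0.357, so those tests could not pass 0.05. For the call test and for AGGAA the smallest possible exact p was 0.021. Adjustment over the 8 tests would raise this above 0.05 unless other tests also gave a low p. Sites of 1 gene share a locus, and these tests compare sites within the same libraries. No difference between the families was shown, and the width of the intervals leaves large differences in either direction undetected.

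The wider pathways were counted in lists with the same rule, and these lists included the member genes. Of 38 Notch pathway genes, 10 had a site (26.3%) and 6 had a site called in both replicates (15.8%), against 27.9% and 11.1% of all protein-coding genes. Apart from Hey2, the gene with a site called in both replicates nearest to its own start was Dtx1, which encodes an E3 ligase of the Notch pathway. That site (chr5:121136892-121137580), in a Dtx1 intron 24.6 kb from the start, had fold enrichments of 8.69 and 6.97 and held WGATAR. Of 22 ephrins and Eph receptors, 10 had a site (45.5%) and 2 had one called in both replicates (9.09%), namely Efnb2 and Epha4, the latter 838 kb from its start with fold enrichments of 9.80 and 5.84. The same site was counted for both Epha8 and Ephb2. Efna5 and Epha7 were counted only through sites called in replicate 2 alone, 636 to 1342.1 kb from their starts. Of 18 Sox genes in the annotation, 7 had a site (38.9%) and 3 had one in both replicates (16.7%), and Sox7 and Sox17 were the only ones with such a site nearest to their own start. Without the members, 7 of 33 Notch pathway genes had a site and 4 had one called in both replicates. For ephrins and Eph receptors these numbers were 8 and 1 of 20, and for Sox genes 5 and 1 of 15.

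A further list of 22 other genes of arteries, veins and lymphatics was chosen with earlier results of these data known. Its shares therefore do not show that such genes differ from others. Of its genes, 12 had a site (54.5%) and 8 had one called in both replicates (36.4%), against 27.9% and 11.1% of all protein-coding genes. The strongest in replicate 1 lay 23.2 kb from the start of Smad6, which encodes an inhibitory SMAD of BMP signalling (chr9:63892895-63893507), with fold enrichments of 21.8 and 12.8. Next in replicate 1 came a site 4.64 kb from the start of Aplnr, the apelin receptor gene (chr2:84980799-84981385), with 20.4 and 8.41, whereas in replicate 2 another Smad6 site (chr9:63789604-63789936) was above it, at 8.60. The Smad6 site 23.2 kb from the start and the Aplnr site were above the highest replicate 1 fold enrichment at the 10 genes (12.8). In replicate 2 the Smad6 site 23.2 kb from the start was above the highest (8.75), and the Aplnr site and the other Smad6 site were not. Sites at Acvrl1 (a BMP9 receptor), Cxcr4 (a chemokine receptor) and Unc5b (a netrin receptor) had fold enrichments of 6.65, 6.07 and 4.88 in replicate 1 and 5.01, 5.88 and 4.71 in replicate 2. The genes of this list had a median body of 46.2 kb, compared with 15.4 kb for all protein-coding genes and 10.3 kb for the 10 members. The median was 28.4 kb for the ephrins and Eph receptors, 21.6 kb for the Notch pathway genes and 4.79 kb for the Sox genes. A longer body takes in more sequence under the rule, and the part of gene length in these shares was not tested.

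At the edge of the rule, the last site within 100 kb was the Sox7 site called in replicate 2 alone, 95.79 kb from the gene body. The first beyond it was the Efnb2 site at 100.8 kb, which was kept by its nearest start. The first site beyond it that was not assigned to a member lay 104.7 kb from Sox7 (chr14:64674168-64674443), nearest to Rp1l1, and was called in replicate 1 alone with a fold enrichment of 6.50. With 1 value per library, the error of any one site is poorly known, and the fold enrichments of the replicates rest on different backgrounds, so they were set side by side and not tested against each other.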

How the data were processed

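ETO2 ChIP-seq peak lists of 2 replicates from day 4 FLK1+ cells were used. Per the study's methods, the authors aligned read pairs to mm9 with Bowtie, removed duplicates and called peaks with MACS2 2.0.10 at a q-value threshold of 0.05, replicate 1 against the input and, per the peak names, replicate 2 without one. The deposited lists give a score (rescaled q-value), a fold enrichment and −log10 p- and q-values. Fold enrichment is the ratio of ChIP fragments to local background at the summit, with 1 added to each. In replicate 1 both were first scaled by 1.3418 to the larger library. The fragments and background given here are unscaled, so their plain ratio differs from the fold enrichment. A series-wide list of positions and the input were not analysed here.

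Summit fragments and local background were recovered from fold enrichment and −log10 p with a Poisson model, which matched the deposited p of 100% of peaks. The read totals in the study's reporting summary are higher for replicate 1, whereas the recovered background was higher in replicate 2, and this was not resolved. The lists held 2335 and 1873 peaks, with a median of 27 and 35 fragments at the summit. Across the 1002 sites called in both replicates, a chi-square test of the fragments (2.11 per degree of freedom, p = 2.37e-81) exceeded counting noise, so both lists were kept as separate libraries. Intervals cover counting error only.

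Sites were assigned with GENCODE M1 on mm9 (coordinates from 1). Motifs were searched on both strands in the 100 bp around the replicate 1 summit, or the replicate 2 summit where replicate 1 had no peak. A window was called unique when at least 80% of its 24-mers occurred once in the genome. Families were compared by 2-sided Fisher's exact tests (8 tests, Benjamini-Hochberg). Sequence windows were shown for the strongest site called in both replicates of each gene, and list genes were named when such a site was nearest to their own start, up to 5 per list by replicate 1 fold enrichment. Members, lists and motifs were chosen with earlier results of these data known. Alternatives changed the assignment, overlap, threshold and window rules and left out each replicate. Scripts were tested on simulated data and run with Python 3.11.15, pandas 2.3.3, NumPy 2.4.6, SciPy 1.17.1 and pysam 0.24.0.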

Additional observations from a re-analysis of the deposited data

How the results depend on the processing

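The number of assigned sites was 14, and it was 8 with the nearest start site only, with 50 kb around the gene or with a minimum fold enrichment of 5, and 9 to 13 with each replicate left out. Genes with a site called in both replicates fell from 5 to 3 with 100 kb around the gene only or with a minimum fold enrichment of 5. Distance is bounded by the rule, and some alternatives moved that bound, so distances are a description and do not show a difference between the families. The median distance at SoxF genes was below that at Notch and ephrin genes under every alternative run. The difference was -32.2 kb as reported, -25.2 kb with 100 kb around the gene only, -136 kb with the nearest start site only or 50 kb around the gene, -60.0 kb at a q-value of 1e-05 or less, -112 kb with a minimum fold enrichment of 5, and -125 to -42.6 kb with each replicate left out. The share of sites called in both replicates was 15.6 percentage points higher at SoxF genes as reported, 60 points higher with the nearest start site only or 50 kb around the gene (exact p = 0.196), equal with a minimum fold enrichment of 5, and turned to -10 at a q-value of 1e-05 or less (exact p = 1.0), and without either replicate it has no value. The share with WGATAR was 24.4 points higher at SoxF genes as reported, with every SoxF match at Sox7, and differed by 0 points with a minimum fold enrichment of 5. No alternative brought the share called in both replicates or that of WGATAR past the threshold, the lowest exact p being 0.196 and 0.524. Under the alternatives with the lowest exact p for calls, every SoxF site left was called in both replicates. A higher SoxF share could give no lower p there, so these alternatives could not decide the question. Genes of the lists with a site numbered 39 of 100, 24 with the nearest start site only and 19 with sites called in both replicates only, both added after the data were seen. Of all protein-coding genes, 27.9% had a site and 11.1% had one called in both replicates. Their share with the nearest start site only is not given here. The shrinking counts follow from fewer sites entering; the cause of the turn in the shared calls was not tested. No paired analysis was possible because no treatment groups were compared. The fewest summit fragments of a listed peak were 12 in replicate 1 and 18 in replicate 2, and the part of depth and of background in this was not tested.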
